A study of Mus musculus with 7 samples.

Results

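Immediate early genes are transcribed within minutes of a stimulus from factors already present in the cell. Described here are 10 of them in mouse ovarian stroma: the AP-1 genes *Fos*, *Fosb*, *Fosl2*, *Jun*, *Junb* and *Atf3*, the zinc finger gene *Egr1*, and the orphan nuclear receptor genes *Nr4a1*, *Nr4a2* and *Nr4a3*. They were chosen as a list of known immediate early genes and not by a rule on their values, though earlier results of these data were known. They are 10 of the 52230 genes with a transcript in the files. All 10 were among the 19233 genes with enough reads to be tested. The stroma was the residual ovary left after repeated puncture to deplete it of granulosa cells. It came from PRKO females, a line in which the progesterone receptor gene *Pgr* is disrupted in the whole animal (Pgrtm1Bwo), and was sequenced in 4 wildtype libraries (PGR +/+, WT replicates 1 to 4) and 3 knockout libraries (PGR -/-, KO replicates 2 to 4). Mice of both genotypes were 21 to 27 days old, received 5 IU eCG and, 44 h later, 5 IU hCG, and were sampled 8 h post-hCG, with each library pooled from 3 mice. No unstimulated or earlier tissue was among these libraries, so the values are of a single time point.

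In the ovary, hCG acts on the luteinizing hormone receptor of theca cells and of mature granulosa cells, raises cyclic AMP, and activates kinases that switch on immediate early genes. FOS and JUN proteins pair with each other to form AP-1, which binds DNA as a dimer. ATF3 is a related factor known as a stress responder. EGR1 binds GC-rich sites, and the NR4A receptors act without a known natural ligand and are linked to steroidogenic genes. The same genes respond to serum, stress and injury, and are known to be switched on when tissue is cut, warmed or dissociated. How long each ovary was handled before it was snap frozen is not given in the sources used here.

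A 5-base core of the cyclic AMP response element, TGACG, was the one searched motif found in the promoters of these genes. RefSeq promoters (GRCm38.p6, 250 bases before to 50 after the start) were at hand for 9 of the 10 genes, all but *Egr1*. TGACG on either strand was in 7 of these 9 and in 20.8% of all 32851 promoters of that length. The exceptions were *Fosl2* and *Jun*. The 4 promoters below are shown as examples that held matches, from AP-1 and NR4A genes. *Fos* had 2 matches, *Junb* 1, as had *Fosb* and *Atf3*, and *Nr4a1* and *Nr4a3* had 4 each, as did *Nr4a2*. Each line gives the 250 bases before the start, 5′ to 3′ on the strand of the gene, with TGACG or its reverse complement CGTCA in capitals. The *Fos* stretch is chr12:85473640-85473889 (plus strand), *Junb* chr8:84978749-84978998 (minus strand), *Nr4a1* chr15:101266596-101266845 (plus strand) and *Nr4a3* chr4:48045055-48045304 (plus strand).
Fos: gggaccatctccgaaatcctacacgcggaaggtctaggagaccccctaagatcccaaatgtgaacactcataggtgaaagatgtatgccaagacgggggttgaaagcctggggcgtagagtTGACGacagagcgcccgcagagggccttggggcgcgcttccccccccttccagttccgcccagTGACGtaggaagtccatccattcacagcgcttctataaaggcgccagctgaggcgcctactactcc
Junb: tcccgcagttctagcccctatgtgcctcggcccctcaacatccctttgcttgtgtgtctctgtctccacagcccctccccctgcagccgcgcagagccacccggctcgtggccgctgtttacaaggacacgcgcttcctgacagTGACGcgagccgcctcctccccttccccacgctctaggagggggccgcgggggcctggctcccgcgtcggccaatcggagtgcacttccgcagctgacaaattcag
Nr4a1: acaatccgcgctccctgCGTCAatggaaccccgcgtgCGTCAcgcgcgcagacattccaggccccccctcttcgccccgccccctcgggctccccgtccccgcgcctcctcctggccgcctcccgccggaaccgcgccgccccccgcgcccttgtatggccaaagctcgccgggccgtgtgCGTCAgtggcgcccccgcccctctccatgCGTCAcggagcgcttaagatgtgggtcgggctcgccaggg
Nr4a3: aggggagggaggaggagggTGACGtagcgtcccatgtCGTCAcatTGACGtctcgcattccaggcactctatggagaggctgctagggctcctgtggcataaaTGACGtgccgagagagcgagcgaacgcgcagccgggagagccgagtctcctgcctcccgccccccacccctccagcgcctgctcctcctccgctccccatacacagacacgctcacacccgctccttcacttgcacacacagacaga

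The full element TGACGTCA, which contains TGACG, was in 0 of the 9 promoters and in 1.79% of all. The AP-1 site TGANTCA was in 0 of 9 (7.81% of all), the NR4A site AAAGGTCA in 0 of 9 (1.51% of all), the EGR site GCGTGGGCG in 0 of 9 (0.612% of all) and the CArG box of the serum response element in 0 of 9 (1.63% of all), each searched on both strands. These matches describe letters in a short window only. Variants of these sites, and elements farther from the start, were not searched.

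Between 47.4 M and 63.4 M reads per library were assigned to transcripts. Replicates are separate pools of mice, and their numbers serve here only as names. *Pgr* lay at 16.8 to 31.0 CPM (counts scaled to library size by TMM) in WT and at 6.13 to 7.56 CPM in KO, so every label matched its *Pgr* level. Summed TPM (an abundance that allows for transcript length) was 3000 to 4070 in WT and 3170 to 3520 in KO for 8 fibroblast markers such as *Dcn* and *Col1a1*, and 7850 to 11000 and 7180 to 8920 for 6 theca markers. Granulosa markers were still present, with 2610 to 3650 TPM in WT and 3160 to 4220 in KO over 10 genes, so the tissue was depleted but not free of them. The samples are bulk tissue, in which fewer cells of a type and less RNA per cell cannot be told apart. The members had between 850 and 52722 reads per library, and counting error at the fewest reads is 3.43%, well below the differences between libraries described next.

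The 10 genes were higher in mean in KO than in WT stroma, by 1.08-fold (*Egr1*) to 1.71-fold (*Atf3*), but none passed the test. Their median log2 fold change was 0.42, against −0.00 over all tested genes, of which 49.7% were higher in KO. A differentially expressed gene (DEG) was one past both an adjusted p of 0.05 and a fold change minimum of 0.5 on the log2 scale. By edgeR's quasi-likelihood test with Benjamini-Hochberg adjustment, 0 of the 10 genes and 0.0104% of all genes were DEGs. The adjusted p of the members ran from 0.314 to 0.809. At an unadjusted p under 0.05, 6 of the 10 were higher in KO (*Fos*, *Jun*, *Junb*, *Atf3*, *Nr4a1* and *Nr4a2*), where 3.84% of all genes were. DESeq2 on the same counts gave *Nr4a1* alone an adjusted p under 0.05, a threshold passed by 1.39% of its genes. That gene stayed below the fold change minimum, so DESeq2 also called 0 of the 10, against 0.823% of all genes. No member had all KO libraries above all WT libraries, which 3.93% of all genes had. The exact permutation test of each gene over the 35 splits of 7 libraries, whose smallest possible p is 0.0286, gave p from 0.0857 to 0.457, or 0.204 to 0.457 after Benjamini-Hochberg adjustment over the 10 tests.

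**Figure D1:**
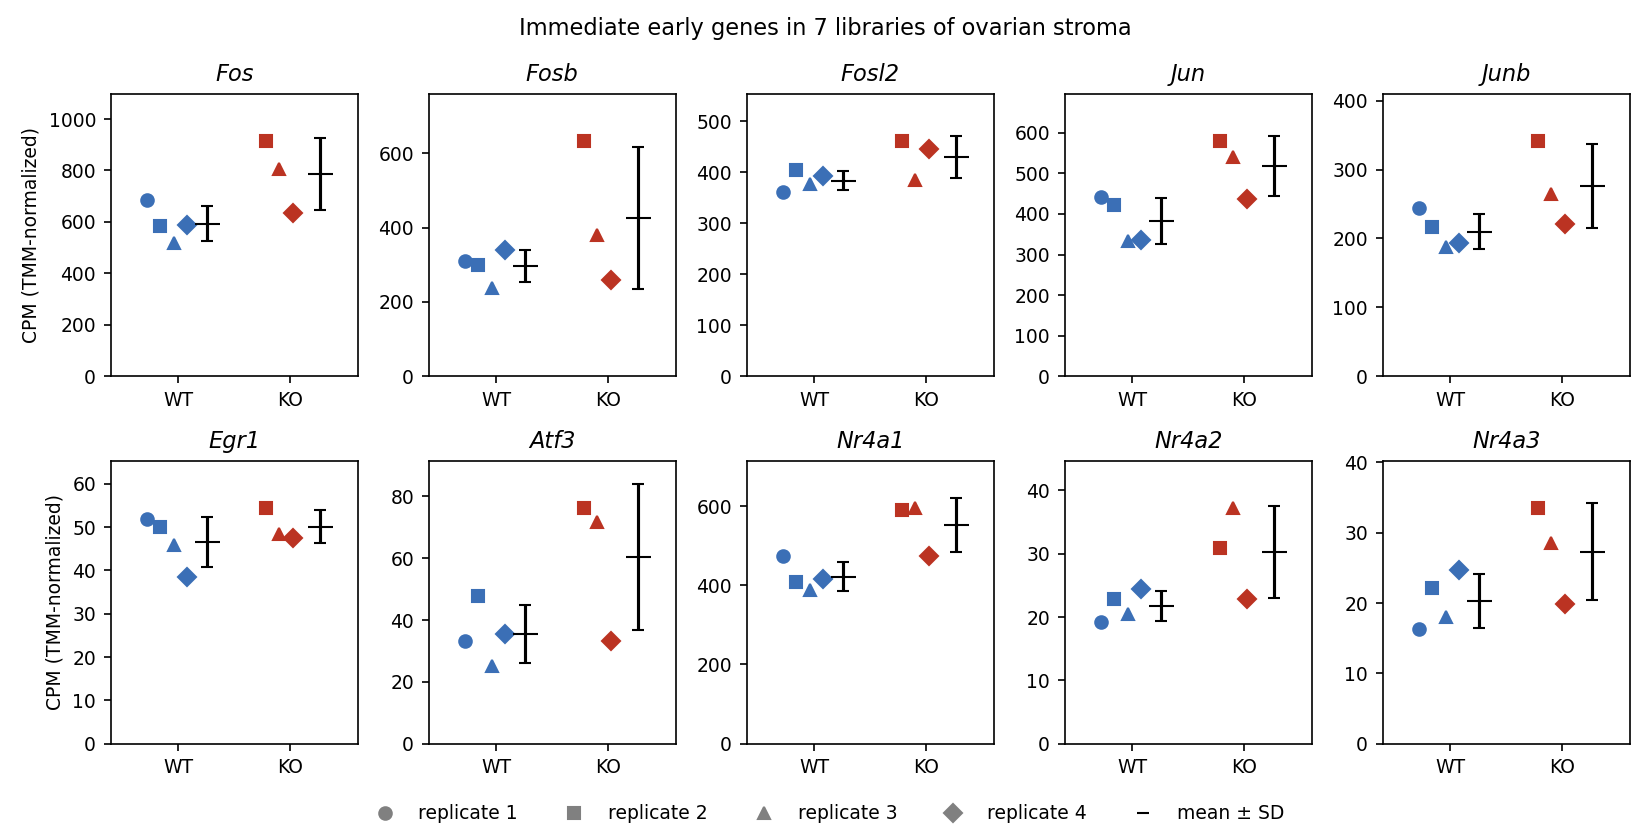
TMM-normalized CPM (vertical axis, linear from 0) of each gene in 4 WT (blue) and 3 KO (red) libraries, with the replicate number as the symbol and the group mean ± SD in black beside the points. KO replicate 2 lay above every WT library in all 10 panels, and KO replicate 4 lay within the WT range in 9.

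The higher values lay in 2 of the 3 KO libraries. KO replicate 2 lay above every WT library for all 10 genes and KO replicate 3 for 8 of them, all but *Fosl2* and *Egr1*. KO replicate 4 did so for 1 gene, *Fosl2*, and lay within the WT range for the other 9. Relative to the WT median of each gene, the median over the 10 genes was 1.54-fold in KO replicate 2, 1.40-fold in KO replicate 3 and 1.06-fold in KO replicate 4. KO replicate 2 held the highest value of 8 genes and KO replicate 3 that of 2 (*Nr4a1* and *Nr4a2*). At the other end, WT replicate 3 was lowest for 6 genes, WT replicate 1 for 3 and WT replicate 4 for 1. Without KO replicate 2 the median log2 fold change was 0.27 and 3 members had an unadjusted p under 0.05 in edgeR, where 2.43% of all genes were then higher at that threshold. Without KO replicate 4 the median was 0.55 and 8 members had an unadjusted p under 0.05 in edgeR (5.87% of all genes). The groups of 8 members then no longer overlapped, where 11.4% of all genes had KO above WT. In fits added after the values were seen, DESeq2 without KO replicate 4 called 7 of the 10 as DEGs, among 243 over all genes. With all 7 libraries it had called 143 over all genes, or 0.823%, while for its fits that left out a library no share was counted. It called 1 member without WT replicate 1 (*Jun*, among 207 over all genes) and 1 without WT replicate 4 (*Nr4a2*, among 157). Without each of the other libraries it called 0 members, and edgeR called 0 in every such fit. Without WT replicate 1 the groups of 4 members did not overlap (5.88% of all genes), and without KO replicate 3 those of 1 (6.94% of all genes).

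*Fos*, which encodes the founding FOS subunit of AP-1, lies on chromosome 12 (85520658 to 85524047 in GRCm39). In the WT libraries, in the order of replicates 1 to 4, it measured 685, 585, 516 and 587 CPM, and in the KO libraries, in the order of replicates 2 to 4, 916, 805 and 636 CPM. Values of other genes are given in the same order. KO replicates 2 and 3 exceeded all WT libraries, and KO replicate 4 lay below WT replicate 1. The WT mean was 593 ± 69.4 CPM (SD, n = 4) and the KO mean 786 ± 141 CPM (SD, n = 3), which gave a log2 fold change of 0.41 (SE 0.13, adjusted p = 0.399 in edgeR and 0.113 in DESeq2).

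*Fosb*, whose product pairs with JUN proteins as FOS does, lies on chromosome 7 (19036621 to 19043976). It measured 311, 300, 236 and 340 CPM in WT and 634, 380 and 260 CPM in KO. One library stood far above the rest, KO replicate 2, while KO replicate 4 was lower than 3 of the 4 WT libraries. The log2 fold change was 0.52 (SE 0.26, adjusted p = 0.596 in edgeR), and 0.11 without KO replicate 2. *Fosl2*, which encodes the FOS-related protein FRA2, lies on chromosome 5 (32292707 to 32315186) and was the steadiest of the 10. It measured 361, 405, 376 and 392 CPM in WT and 462, 384 and 445 CPM in KO, and the log2 fold change was 0.17 (SE 0.08, adjusted p = 0.574 in edgeR). For this gene it was KO replicate 3, not KO replicate 4, that fell among the WT values.

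*Jun* encodes the JUN subunit of AP-1 and lies on chromosome 4 (94937271 to 94940459). It measured 442, 421, 333 and 337 CPM in WT and 581, 540 and 437 CPM in KO. The groups overlapped only between WT replicate 1 and KO replicate 4. The log2 fold change was 0.44 (SE 0.13, adjusted p = 0.363 in edgeR and 0.0654 in DESeq2). *Junb*, a JUN relative that can restrain JUN activity, lies on chromosome 8 (85701113 to 85705359). It measured 244, 216, 187 and 193 CPM in WT and 342, 265 and 221 CPM in KO, a log2 fold change of 0.40 (SE 0.15, adjusted p = 0.469 in edgeR). KO replicate 2 was again the highest library and KO replicate 4 lay inside the WT range.

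*Atf3*, the stress-responsive member that can repress transcription as a homodimer, lies on chromosome 1 (190902493 to 190950241). It measured 33.2, 47.7, 25.1 and 35.4 CPM in WT and 76.2, 71.6 and 33.2 CPM in KO. KO replicates 2 and 3 stood well above the highest WT library, whereas KO replicate 4 matched WT replicate 1. This gave the largest fold change of the 10, 0.77 on the log2 scale, with the largest error as well (SE 0.29, adjusted p = 0.47 in edgeR).

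*Egr1* lies on chromosome 18 (34992876 to 34998049) and differed least between the genotypes. It measured 51.8, 50, 45.9 and 38.6 CPM in WT and 54.4, 48.4 and 47.5 CPM in KO. KO replicates 3 and 4 lay inside the WT range, KO replicate 2 just above it, and the log2 fold change was 0.11 (SE 0.10, adjusted p = 0.809 in edgeR). Its relatives *Egr2* and *Egr3* behaved differently, with every KO library above every WT library. *Egr2* measured 25.4, 24.3, 24.5 and 21.9 CPM in WT and 38.7, 34.6 and 31.3 CPM in KO, a log2 fold change of 0.54 (SE 0.08, adjusted p = 0.111 in edgeR and 3.02e-05 in DESeq2). *Egr3* measured 11.2, 10.9, 11.5 and 11.6 CPM in WT and 40.6, 17.1 and 21.4 CPM in KO, a log2 fold change of 1.22 (SE 0.25, adjusted p = 0.207 in edgeR and 9.56e-05 in DESeq2). Both passed the DEG thresholds in DESeq2 and not in edgeR, and the difference between them and *Egr1* was not tested. Over the 14 other AP-1 and EGR family genes listed, 11 were higher and 3 lower in KO (median log2 fold change 0.14). Apart from *Egr2* and *Egr3*, 0 had an unadjusted p under 0.05 in edgeR, and the next lowest p was that of *Batf*, at 0.948 to 1.17 CPM in WT and 1.05 to 1.65 CPM in KO (log2 fold change 0.34, SE 0.19, adjusted p = 0.648).

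Of the NR4A receptors, *Nr4a1* had the lowest unadjusted p of all members in edgeR. It encodes NUR77 and lies on chromosome 15 (101151980 to 101172681). It measured 474, 409, 387 and 416 CPM in WT and 589, 595 and 473 CPM in KO. KO replicate 4 lay just under the highest WT library, and the other KO libraries stood above it. The WT mean was 422 ± 37.0 CPM (SD, n = 4) and the KO mean 552 ± 68.7 CPM (SD, n = 3), which gave a log2 fold change of 0.39 (SE 0.10, adjusted p = 0.314 in edgeR and 0.0262 in DESeq2).

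*Nr4a2* encodes NURR1 and lies on chromosome 2 (56996842 to 57014331). It measured 19.2, 22.8, 20.5 and 24.5 CPM in WT and 30.9, 37.2 and 22.8 CPM in KO, and the log2 fold change was 0.48 (SE 0.15, adjusted p = 0.395 in edgeR). KO replicate 3 was the highest library and KO replicate 4 lay level with WT replicate 2. *Nr4a3* encodes NOR1 and lies on chromosome 4 (48045153 to 48086447). It measured 16.3, 22.2, 18.0 and 24.7 CPM in WT and 33.5, 28.5 and 19.9 CPM in KO, and the log2 fold change was 0.42 (SE 0.19, adjusted p = 0.561 in edgeR). Its KO replicate 4 was lower than WT replicates 2 and 4.

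**Figure D2:**
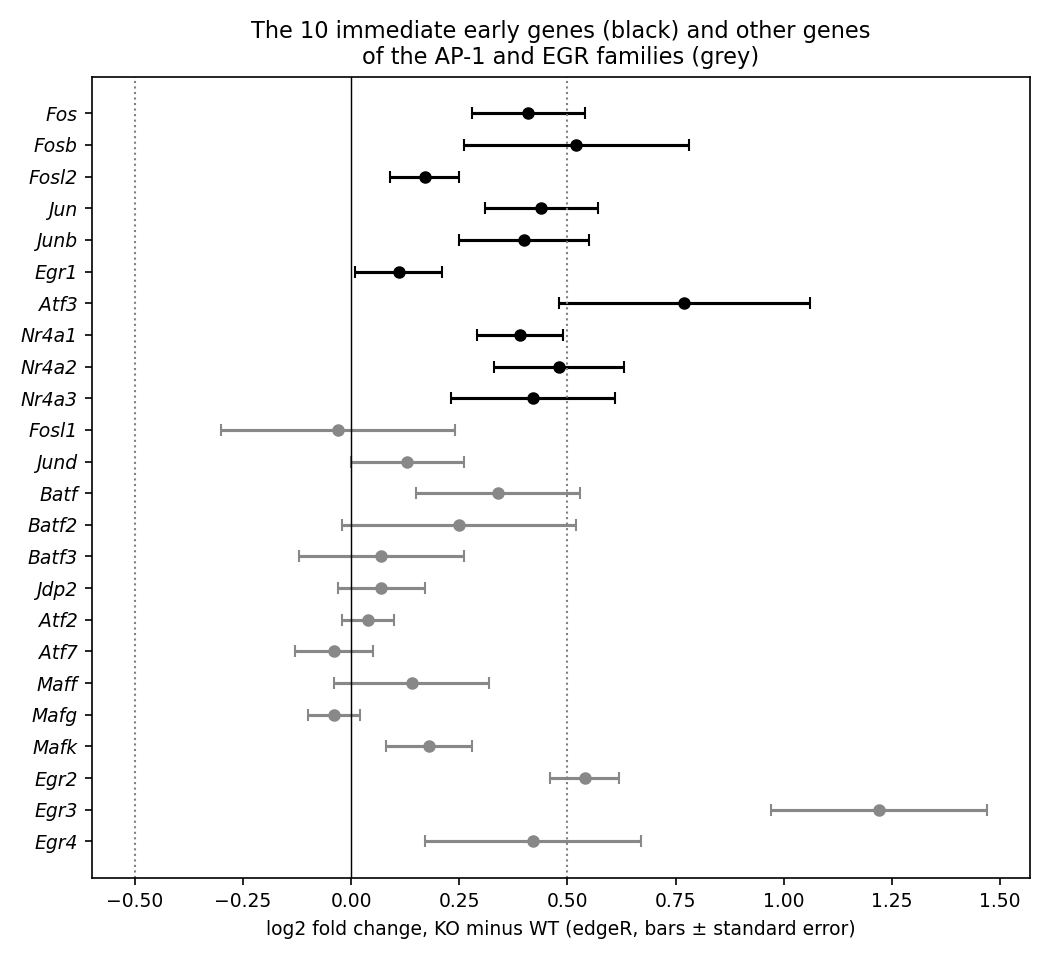
Log2 fold change of KO minus WT in edgeR (horizontal axis, bars ± standard error) for the 10 genes (black) and for 14 other genes of the AP-1 and EGR families (grey), with dotted lines at the fold change minimum of 0.5 in either direction. All 10 black points lie right of 0, from 0.11 to 0.77, and *Egr3* has the largest value of the family genes, 1.22.

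Between libraries of one genotype, most of the 10 genes varied more than the typical gene. The within-genotype SD of log2 CPM was above the median of all tested genes, 0.15, for 8 of the 10. It was 0.51 for *Atf3* and 0.44 for *Fosb*, which placed them at percentiles 93.3 and 90 of all tested genes. It was lowest for *Fosl2*, 0.11, at percentile 33.1, and *Nr4a1* sat at percentile 49.9. Low genes are noisier than high ones, so edgeR's biological coefficient of variation was also read against its trend with expression level. It exceeded the trend for 9 of the 10 genes, where 25.0% of all genes did, by 2.82 times for *Atf3*, 2.42 times for *Fosb* and 1.71 times for *Nr4a3*. The exception was *Fosl2*, at 0.858 of the trend. Over all 7 libraries, the highest CPM was 1.28 times the lowest for *Fosl2*, 1.78 times for *Fos*, 2.68 times for *Fosb* and 3.03 times for *Atf3*.

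The SD was larger in KO than in WT for all members but *Jun* and *Egr1*. It was 0.64 in KO and 0.22 in WT for *Fosb*, 0.67 and 0.38 for *Atf3*, and 0.36 and 0.16 for *Nr4a2*. *Jun* had 0.21 in both genotypes, and for *Egr1* the order was reversed, 0.11 in KO and 0.19 in WT. With 3 and 4 libraries a difference between such SDs was not tested.

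**Figure D3:**
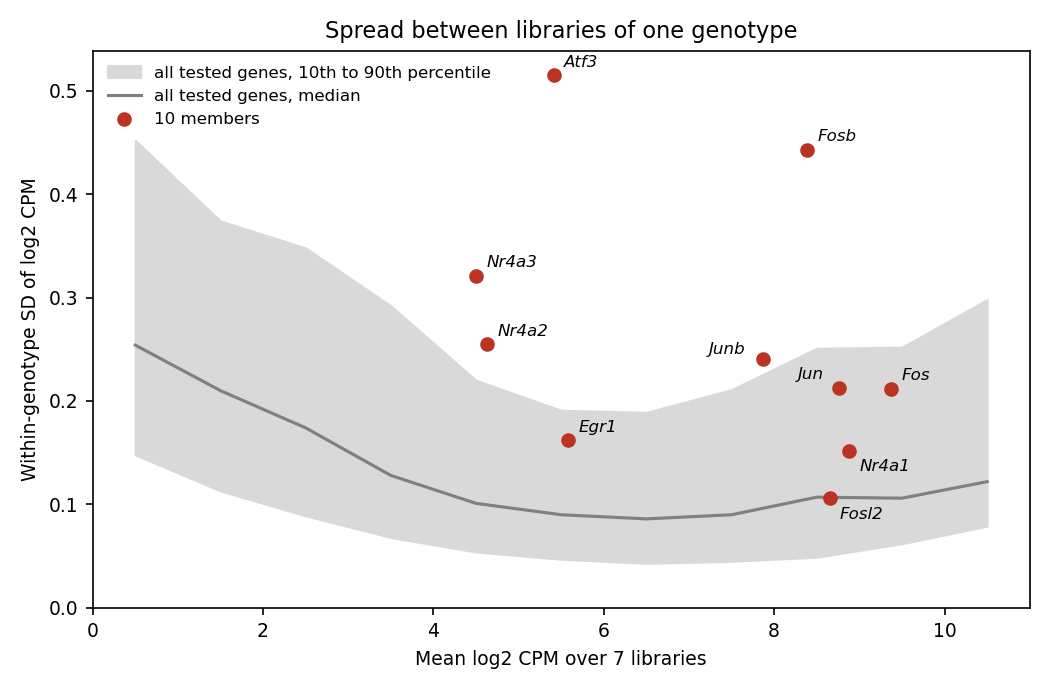
Within-genotype SD of log2 CPM (vertical axis) against mean log2 CPM over 7 libraries (horizontal axis) for the 10 genes (red points), over the median (line) and the 10th to 90th percentile (grey band) of all tested genes at that level. *Atf3*, with an SD of 0.51, and *Fosb*, with 0.44, lie highest above the band, and *Fosl2*, with 0.11, lies on the line.

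Compared per length, in TPM, *Fos* was the most abundant member in WT stroma at 463 ± 34.7 TPM (SD, n = 4), followed by *Nr4a1* at 316 ± 16.1. *Junb* (189 ± 15.9) and *Jun* (186 ± 22.9) came next and their ranges overlapped. *Fosb* followed at 137 ± 21.7, *Fosl2* at 92.7 ± 9.26 and *Atf3* at 29.0 ± 8.44, each with all 4 libraries above the next gene. *Egr1* (15.8 ± 1.75) and *Nr4a2* (15.1 ± 3.17) overlapped, and *Nr4a3* was lowest at 5.76 ± 1.30. In KO stroma *Fos* was again first at 636 ± 88.1 TPM (SD, n = 3) and *Nr4a1* second at 426 ± 43.5. *Jun* (260 ± 26.1), *Junb* (255 ± 46.7) and *Fosb* (203 ± 87.8) had overlapping ranges with their neighbours there, as had *Nr4a2* (22.8 ± 4.97) and *Egr1* (17.5 ± 0.875). The place of *Nr4a2* is uncertain, because a 182-base model took 0.4% of its reads and 24.6% of its TPM (medians over the libraries).

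Most members were read from one main transcript. *Jun* and *Egr1* had a single transcript, the first models of *Junb* and *Atf3* took 99.7% to 100.0% of their reads, and Fos-201 took 98.3% to 99.0%. Nr4a1-201 took 90.6% to 92.9% of *Nr4a1* reads, and a retained-intron model, Nr4a1-204, took 5.5% to 8.0%. Fosb-201 took 74.8% to 78.5% of *Fosb* reads. The *Fosb* retained-intron model Fosb-204 took 16.46%, 13.51%, 15.54% and 12.5% in WT and 11.63%, 14.04% and 13.88% in KO, so the library with the most *Fosb* had the smallest retained-intron share. The reads of *Nr4a2* were split over 6 models, with Nr4a2-203 at 41.2% to 66.7%, and those of *Nr4a3* mainly over Nr4a3-201 (52.7% to 77.9%) and Nr4a3-203 (21.3% to 46.7%). Salmon divides reads shared by such models by estimation, so the shares of the last 2 genes are less certain than their sums.

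Most other immediate early genes were also higher in KO, and in most KO replicate 2 was the highest library. Of 38 listed, 33 were higher and 5 lower in KO (median log2 fold change 0.21), and KO replicate 2 held the highest value of 25. At an unadjusted p under 0.05, 13 were higher and 0 lower in edgeR, where 3.84% of all genes were higher and 5.1% lower. Of the 38, 0 were DEGs in edgeR. *Btg2*, an antiproliferative gene, measured 261, 269, 213 and 261 CPM in WT and 387, 347 and 288 CPM in KO. Its groups did not overlap, and its log2 fold change was 0.44 (SE 0.11, adjusted p = 0.314 in edgeR and 0.0262 in DESeq2). *Ier3*, a survival factor, measured 66.1, 77.8, 71.4 and 70.0 CPM in WT and 150, 102 and 81.4 CPM in KO, a log2 fold change of 0.64 (SE 0.17, adjusted p = 0.319 in edgeR). It was the one gene of this list past the DEG thresholds in DESeq2 (adjusted p = 0.0233). *Klf2*, a zinc finger factor of vessels and leukocytes, had a log2 fold change of 0.29 (SE 0.09, adjusted p = 0.382 in edgeR) and the widest spread in the list was that of *Rgs1*, a brake on G protein signalling, with 0.585 to 1.11 CPM in WT and 2.19, 0.896 and 0.552 CPM in KO.

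Genes that act as brakes on these pathways were mostly higher in KO as well. Of 23 feedback regulators, 21 were higher and 2 lower in KO. At an unadjusted p under 0.05 in edgeR, 7 were higher and 0 lower, where 3.84% of all genes were higher. Of the 23, 0 were DEGs in edgeR or DESeq2. KO replicate 2 was the highest library for 15 of them. Their median log2 fold change was 0.18. *Dusp6*, a phosphatase that inactivates ERK, measured 78.6, 84.7, 74.0 and 80.8 CPM in WT and 93.7, 85.1 and 97.8 CPM in KO. *Pde4d*, which degrades cyclic AMP, measured 25.3, 23.1, 23.8 and 21.2 CPM in WT and 27.6, 26.5 and 27.5 CPM in KO. In both, every KO library lay above every WT library, as in 4 of the 23 feedback genes, where 3.93% of all genes did. *Dusp6* and *Pde4d* had log2 fold changes of 0.21 and 0.22 (each SE 0.07, adjusted p = 0.386 and 0.372 in edgeR). *Tnfaip3*, an inhibitor of NF-kappa-B, had the widest spread in the list. It measured 12.1, 22.7, 15.7 and 26.9 CPM in WT and 67.4, 32.1 and 16.2 CPM in KO. *Rgs16* had a log2 fold change of 0.53 (SE 0.18, adjusted p = 0.4 in edgeR).

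The factors and kinases that sit upstream were mostly lower in KO, by small amounts. Of 26 listed, such as *Srf*, *Creb1*, the MAP kinases and the receptor *Lhcgr*, 7 were higher and 19 lower in KO (median log2 fold change −0.03), and 0 were DEGs in edgeR or DESeq2. At an unadjusted p under 0.05 in edgeR, 0 were higher and 1, *Elk3*, was lower (log2 fold change −0.15, SE 0.06, adjusted p = 0.484). KO replicate 2 was the highest library for 1 of the 26. *Lhcgr*, the luteinizing hormone receptor through which hCG acts, measured 549, 508, 627 and 614 CPM in WT and 336, 374 and 618 CPM in KO. The 2 KO libraries with the most immediate early gene RNA had the least *Lhcgr*, while KO replicate 4 lay with WT (log2 fold change −0.38, SE 0.19, adjusted p = 0.609 in edgeR). *Rps6ka3*, a kinase downstream of ERK, showed this order too, with 133 to 142 CPM in WT and 119, 118 and 138 CPM in KO.

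Known partners and targets of the members went either way. Of 20 listed, 18 were tested, *Mmp10* and *Mmp13* being too low, and 11 were higher and 7 lower in KO (median log2 fold change 0.07), and 0 were DEGs in edgeR or DESeq2. Of the lower ones, *Star*, *Cyp11a1*, *Hsd3b1*, *Cyp17a1* and *Insl3* are also on the list of theca markers. At an unadjusted p under 0.05 in edgeR, 1 was higher and 1 lower. *Plau*, the urokinase gene and a known AP-1 target, measured 808, 751, 735 and 645 CPM in WT and 1110, 893 and 915 CPM in KO. Every KO library exceeded every WT library, and the log2 fold change was 0.41 (SE 0.10, adjusted p = 0.314 in edgeR and 0.018 in DESeq2). *Star*, which moves cholesterol into mitochondria for steroid synthesis, was lower in every KO library, at 988 to 1920 CPM in WT and 849 to 975 CPM in KO (log2 fold change −0.51, SE 0.21, adjusted p = 0.529 in edgeR). *Cyp17a1*, the androgen synthesis enzyme of theca cells, ranged from 467 to 1200 CPM in WT and from 431 to 674 CPM in KO (log2 fold change −0.67, SE 0.30, adjusted p = 0.568 in edgeR). *Il6* measured 4.63, 10, 5.71 and 9.89 CPM in WT and 26.6, 15.1 and 4.33 CPM in KO. This gene, an inflammatory cytokine, was highest in KO replicates 2 and 3 and lowest in KO replicate 4, and had the widest spread of the list.

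Genes known to respond to tissue handling were read beside the members. Of 12 heat shock and chaperone genes, 10 were higher and 2 lower in KO (median log2 fold change 0.38). In edgeR 6 had an unadjusted p under 0.05, all higher, where 3.84% of all genes were. Of the 12, 0 were DEGs in edgeR or DESeq2. KO replicate 3 was the highest library for 9 of them and KO replicate 2 for 0, whereas KO replicate 2 was highest for 8 members. Log2 CPM centred on each gene's own mean averaged 0.08, 0.48 and 0.05 over this list in KO replicates 2 to 4. In WT it averaged −0.30 to 0.05. For the members it averaged 0.48, 0.29 and −0.10 in the KO libraries. KO replicate 4 was the lowest KO library in both, but in the heat shock list KO replicate 2 was nearly level with it. *Hspa8*, a chaperone expressed in all cells, measured 1860, 1770, 1810 and 1840 CPM in WT and 2290, 2660 and 2280 CPM in KO (log2 fold change 0.41, SE 0.08, adjusted p = 0.19 in edgeR and 5.72e-05 in DESeq2). *Hsph1* and *Bag3*, both induced by heat shock factor, had log2 fold changes of 0.44 and 0.36 (each SE 0.11, adjusted p = 0.314 and 0.386 in edgeR). Of 10 hypoxia genes tested, 8 were higher and 2 lower (median log2 fold change 0.06), 1 of them with an unadjusted p under 0.05 in edgeR. That gene was *Egln3*, an oxygen sensor, with 21.8 to 30.6 CPM in WT and 33.5, 45.7 and 43.4 CPM in KO (log2 fold change 0.61, SE 0.13, adjusted p = 0.236 in edgeR and 0.00392 in DESeq2). *Ankrd37* (log2 fold change 0.48, SE 0.25, adjusted p = 0.623 in edgeR) and *Pdk1* (0.15, SE 0.08, adjusted p = 0.646) followed. The part of tissue handling in the members' difference was not tested.

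**Figure D4:**
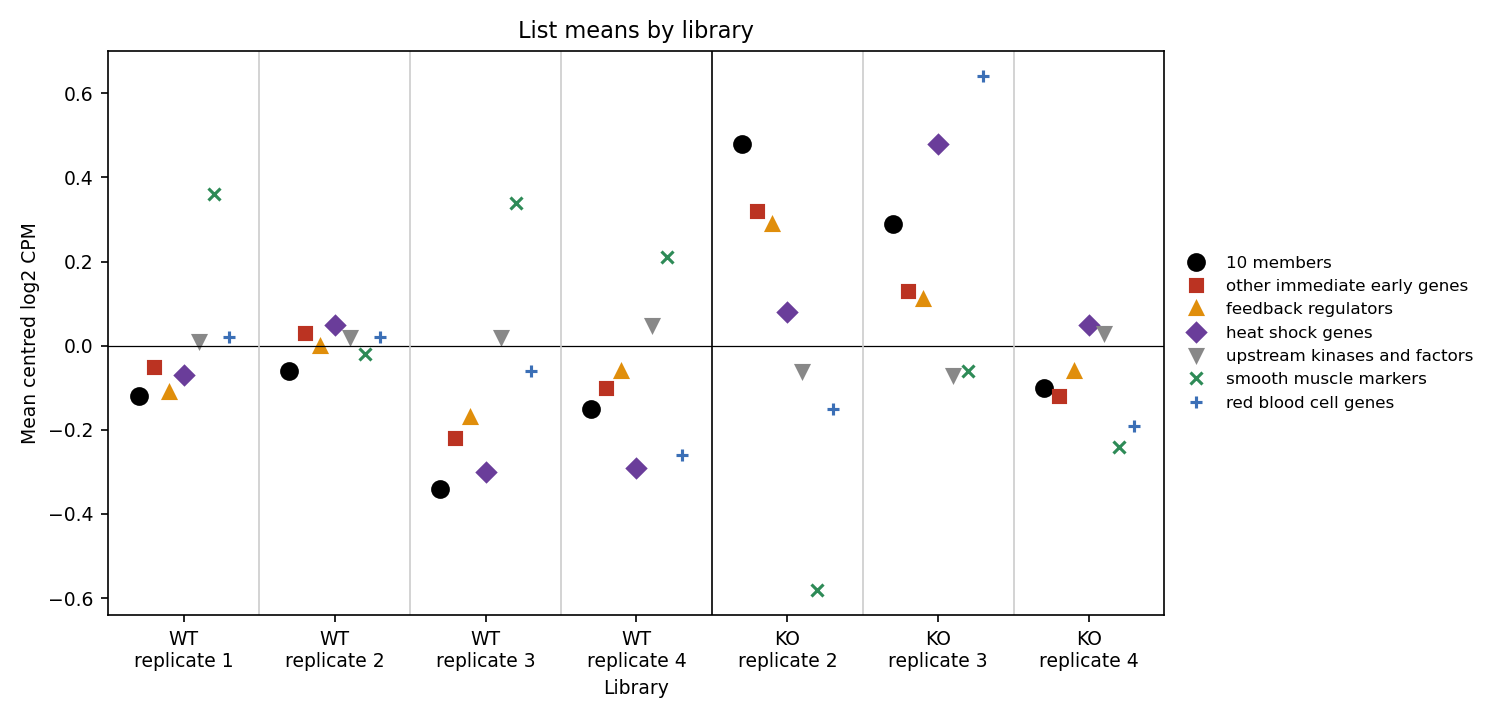
Mean over each list of log2 CPM centred on each gene's own mean (vertical axis) in the 7 libraries (horizontal axis), for the 10 genes, 4 companion lists and 2 marker lists, with a black line between WT and KO. The mean of the 10 genes was 0.48 in KO replicate 2, 0.29 in KO replicate 3 and −0.10 in KO replicate 4, against −0.34 to −0.06 in WT, while heat shock and red blood cell genes peaked in KO replicate 3.

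Several cell markers and library measures also differed between libraries. Only some of them set KO replicates 2 and 3, which were high in these genes, apart from the rest. Smooth muscle markers summed to 1640 to 1970 TPM in WT and to 1170, 1590 and 1530 TPM in KO replicates 2 to 4. All 6 of these genes were lower in KO, 5 with an unadjusted p under 0.05 in edgeR, where 5.1% of all genes were lower at that threshold. In edgeR 0 were DEGs. The groups of 3 did not overlap, with KO below WT, for which a share over all genes was not counted. DESeq2 called 2 as DEGs, where 0.823% of all genes were called. They were *Des* (log2 fold change −0.78, adjusted p = 0.000241) and *Cnn1* (log2 fold change −0.70, adjusted p = 0.00164), which are named here after their values were seen. KO replicate 2, with the most immediate early gene RNA, had the lowest sum. KO replicate 3, also high in these genes, lay above KO replicate 4. All 6 theca markers were also lower in KO, with a median log2 fold change of −0.43, as were all 6 endothelial markers, at 290 to 333 TPM in WT and 278 to 315 in KO. The theca markers are not a separate set of genes. They share *Star*, *Cyp11a1*, *Hsd3b1*, *Cyp17a1* and *Insl3* with the partners and targets, and *Lhcgr* with the upstream list. Red blood cell genes summed to 1150 to 1470 TPM in WT and to 1220, 2190 and 1300 TPM in KO replicates 2 to 4, and oocyte genes to 193 to 276 and to 257, 340 and 242 TPM, so both peaked in KO replicate 3. Leukocyte markers overlapped, at 33.5 to 39.8 TPM in WT and 32.6 to 40.8 in KO, with the highest sum in KO replicate 2. Of 5 neutrophil markers 3 were tested, their sums were 5.87 to 7.29 TPM in WT and 4.07 to 6.94 in KO, and *Ly6g* was at or near 0 in every library. The sums of cumulus markers (401 to 531 TPM in WT, 425 to 486 in KO) and of surface epithelium markers (26.5 to 49.4 and 28.1 to 41.1) overlapped. Single genes of these lists went either way. Of 7 cumulus genes, 4 were higher and 3 lower in KO, 2 and 1 of them with an unadjusted p under 0.05 in edgeR. Their mean centred log2 CPM was −0.27 to 0.11 in WT and 0.33, 0.14 and −0.19 in KO. Of 5 surface epithelium genes, 1 was higher and 4 lower, 1 of the lower ones at that threshold. Retained-intron models took 3.143% to 3.961% of all reads in WT and 4.119%, 4.374% and 3.436% in KO replicates 2 to 4, so the same 2 KO libraries had the largest shares. Mitochondrial transcripts took 4.473% to 7.171% in WT and 4.343% to 5.545% in KO. The part of these measures in the members' difference was not tested.

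The genes whose profile over the 7 libraries was most like the mean of the 10 members were sought among 11881 other genes with a mean of at least 5 CPM. Likeness was the mean absolute difference of the centred log2 CPM, which was 0.240 for the median gene. The closest were *Btg2* (0.041), *Gadd45b* (0.048), *Arrdc3* (0.055), *Sik1* (0.060), *Klf4* (0.064), *Irf1* (0.071), *Mxd1* (0.073), *Ptp4a1* (0.075), *Nfil3* (0.079) and *Serpinb1a* (0.080). Of these 10 genes, 6 were on the list of other immediate early genes, which holds 38 genes, beside the 11881 compared. *Gadd45b*, a stress-induced gene, measured 22.1, 22.2, 17.6 and 22.4 CPM in WT and 32.9, 29.2 and 20.6 CPM in KO. *Arrdc3*, an arrestin relative that was on no list, measured 223, 245, 201 and 240 CPM in WT and 336, 299 and 254 CPM in KO. The genes most like *Fos* alone were *Klf4* (0.053), *Btg2* (0.069), *Slc4a3* (0.077), *Gm13889* (0.080) and *Gadd45b* (0.082), where the median gene differed by 0.245.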

How the data were processed

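RNA-seq of granulosa cell-depleted ovary was read in 7 libraries, grouped by the genotype and replicate number in their labels. The authors deposited Salmon's expected counts for each of 139225 transcripts per library, estimated from stranded mRNA reads (paired-end, 100 bp) and the transcripts of GENCODE release M26 on GRCm39, and the TPM that their Salmon run scaled by effective length. Here transcripts were matched by identifier to GENCODE release M39 on the same assembly (137570 matched, 99.37% to 99.4% of reads), and expected counts were summed per gene and rounded.

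Genes were tested with edgeR 4.0.16 in R 4.3.3 (filterByExpr, TMM, glmQLFit with legacy=TRUE, glmQLFTest, two-sided), with Benjamini-Hochberg adjustment across the 19233 genes kept by the filter. DEGs passed the study's thresholds, 0.05 for the adjusted p and 0.5 for the log2 fold change in either direction. SE is the absolute log2 fold change over the square root of F. DESeq2 1.42.0 and limma 3.58.1 were alternatives. Exact permutation tests used log2 CPM with a prior count of 2. The code was tested on simulated counts. The members, lists and alternatives were chosen with earlier results of these data known. Named genes were all members, *Pgr*, in each list the 3 genes with the lowest p and those at or above the 95th percentile of spread, and the genes most like the members. One gene that this rule names is not reported here. Other list genes are named only to say what a list holds. A planned protein comparison was not run, as protein sequences were not used here. Nothing shows which mice shared a litter or day, and the authors' pools average over 3 mice. One text of the labels gives the age as 21 to 25 days.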

Additional observations from a re-analysis of the deposited data

How the results depend on the processing

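All 10 members were higher in KO under each of the 25 alternatives, and the median log2 fold change of the members lay between 0.27 (without KO replicate 2) and 0.55 (without KO replicate 4). Over all genes edgeR called 2 DEGs, DESeq2 143, edgeR with legacy=FALSE 7, edgeR with no filter 36, with 10 counts in every library 6, and limma on log2(TPM + 1) 1. An adjusted p of 0.1 with no fold change minimum gave 11 and an unadjusted p of 0.05 gave 1720. Leaving out 1 library in turn gave 1 to 4 with edgeR. With DESeq2 it gave 207, 114, 99 and 157 without WT replicates 1 to 4 and 65, 103 and 243 without KO replicates 2 to 4. Of the 10 members, 0 were called in edgeR and in its leave-one-out fits and 6 at an unadjusted p of 0.05. DESeq2, in settings added after the data were seen, called 1 without WT replicate 1 (*Jun*), 1 without WT replicate 4 (*Nr4a2*), and 7 without KO replicate 4 (all but *Fosl2*, *Egr1* and *Nr4a1*), so the leave-one-out range was 0 to 7. With the replicate block, edgeR called 26 DEGs and DESeq2 186, and of the members 0 and 1. The 1 was *Jun*, with a blocked log2 fold change of 0.51 (adjusted p = 0.101 in edgeR and 1.23e-06 in DESeq2). In the blocked DESeq2 fit *Fos*, *Junb* and *Nr4a1* also had an adjusted p under 0.05, but stayed below the fold change minimum. Same-numbered libraries are different mice and their deviations from the group means correlated at −0.09, 0.076 and 0.035, so the numbers were not taken to pair them. Of 250 single values of members under these alternatives, 240 kept direction and call and 10 passed the threshold, all with DESeq2. The causes were not tested. The 8 members with a wider spread than the median gene were 8 or 9 throughout. Each member had at least 850 reads in every library, so the number and spread of the libraries limited these tests more than depth did.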
